A study of Homo sapiens with 9 samples.

Results

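The 59 genes described here encode the machinery of G2 and mitosis: the cyclins and kinases that start mitosis, the ubiquitin enzymes that end it, the spindle checkpoint, the kinetochore, the kinesin motors, the midzone and the condensins. They were taken from a list of names drawn up with earlier results of these data known, not from a threshold on their values. Each gene was read from the probe set annotated to it alone, and where there were several from the one of highest mean over the 9 arrays. All 59 had such a probe set, among 19775 genes that had one on the array, and all 59 passed the filter on dim signals, as did 12036 of the 19775. RNA came from HEK293, a human embryonic kidney cell line that carries adenoviral early genes. The 3 Knock Down samples were HEK293 cells given small interfering RNA against MOF, the 3 Over Expression samples were HEK293 cells that received a plasmid for MOF, and the 3 Wild type samples were untreated HEK293 cells. MOF, the product of KAT8, acetylates a lysine of histone H4. No sample treated with an unrelated double-stranded RNA is among the 9, so a comparison with Wild type holds the transfection together with the change in MOF. The time from transfection to RNA extraction and the promoter of the plasmid are not stated in the sources at hand. Whether the replicates are separate cultures is not labelled, so the tests rest on a spread that may be technical.

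Transcripts of G2/M genes are low in G1 and peak as cells enter mitosis. Their promoters are held silent in resting cells by the DREAM complex, which recognises a short element called the CHR, and are switched on by B-MYB with the MuvB core and then by FOXM1, often together with NF-Y bound at upstream CCAAT boxes. The proteins act in order: cyclin B with CDK1 starts mitosis, the checkpoint holds anaphase until every kinetochore is attached, and CDC20 with the anaphase-promoting complex then destroys securin and cyclin B.

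The promoters of 3 genes are printed to show these elements: CDC20, PRC1 and CDCA3, the genes of smallest p between Knock Down and Wild type whose promoter holds a CHR. Each is RefSeq sequence of the build GRCh38.p14, from 250 bases before the start site to 50 after it, 5′ to 3′ on the gene's strand. Capitals mark CHR matches (TTTGAA or TTCGAA) and CCAAT boxes, each on either strand. CDC20 lies on the plus strand at chr1:43358731-43359030, PRC1 on the minus strand at chr15:90994486-90994785 and CDCA3 on the minus strand at chr12:6851237-6851536.
CDC20: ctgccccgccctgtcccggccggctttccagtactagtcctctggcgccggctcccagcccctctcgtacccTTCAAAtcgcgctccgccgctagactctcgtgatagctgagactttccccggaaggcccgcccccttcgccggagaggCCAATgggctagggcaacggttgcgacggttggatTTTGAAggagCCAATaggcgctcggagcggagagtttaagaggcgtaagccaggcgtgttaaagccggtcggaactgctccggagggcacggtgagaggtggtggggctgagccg
PRC1: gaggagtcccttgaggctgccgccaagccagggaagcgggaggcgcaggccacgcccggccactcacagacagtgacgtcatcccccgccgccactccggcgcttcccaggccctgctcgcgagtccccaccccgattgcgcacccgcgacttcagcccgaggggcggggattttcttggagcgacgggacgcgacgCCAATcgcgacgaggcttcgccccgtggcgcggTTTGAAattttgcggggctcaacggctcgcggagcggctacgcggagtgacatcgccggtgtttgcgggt
CDCA3: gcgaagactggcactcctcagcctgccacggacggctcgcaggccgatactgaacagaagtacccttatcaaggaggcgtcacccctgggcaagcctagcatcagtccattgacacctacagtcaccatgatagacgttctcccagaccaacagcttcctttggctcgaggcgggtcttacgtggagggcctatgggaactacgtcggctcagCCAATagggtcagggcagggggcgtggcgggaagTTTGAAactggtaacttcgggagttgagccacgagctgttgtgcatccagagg
In all 3 a CCAAT box lies upstream of a CHR on the gene's own strand, with the first base of the CHR 65, 20 and 3 bases before the start site in CDC20, PRC1 and CDCA3. CDC20 has another CCAAT box after that CHR, and a CHR on the opposite strand 178 bases before the start.

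Of the 59 genes, 52 had a RefSeq promoter, with 66 windows in all. A CHR was found in 65.2% of these windows, against 16.4% of 35116 promoter windows of all genes, and within 50 bases of the start site in 51.5%, against 5.01%. A CCAAT box was found in 69.7%, against 34.6%, and both elements in 33 of the 66 windows, against 6.38% of all windows. For 83 further G2/M genes with 114 windows, the CHR share was 42.1%, or 30.7% within 50 bases, and the CCAAT share 54.4%. For the 41 genes of G1/S and replication with a window, the CHR share was 7.27% and the CCAAT share 52.7%. Counted in steps of 25 bases, CHR matches were most frequent in the 2 steps just before the start site, with 13 in each, and CCAAT boxes between 75 and 50 bases before it, with 29. A match is a run of letters and was not tested as a binding site. Of the 40 genes with a CHR, 13 rose after knockdown and the median log2 fold change was 0.26, and of the 12 without one 3 rose and the median was 0.16. Counting only a CHR within 50 bases of the start site, 10 of the 33 genes with one rose, with a median of 0.26. Of the 19 genes without one there, 6 rose, with a median of 0.19. Among all probe sets tested, 6.82% rose. Whether genes with and without a CHR differ was not tested.

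**Figure D1:**
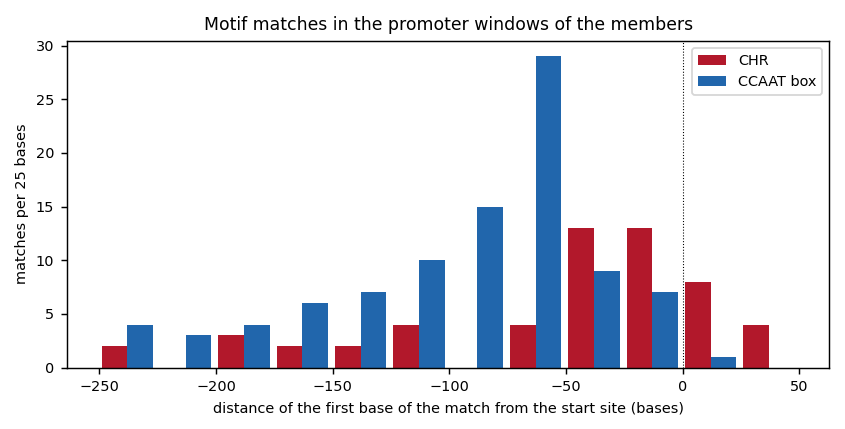
Matches to the CHR (red) and the CCAAT box (blue) in the 66 promoter windows of the G2/M genes, counted in steps of 25 bases along the distance of the first base of the match from the start site (dotted line). CCAAT boxes peak at 29 matches between 75 and 50 bases before the start site, and CHR matches at 13 in each of the 2 steps between 50 bases before it and the start.

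KAT8 itself checks the labels. Its brighter probe set had signals of 432, 706 and 517 in Knock Down, 4594, 4727 and 4763 in Over Expression and 2910, 3797 and 3249 in Wild type. It fell 6.1-fold after knockdown (log2 fold change -2.61, SE 0.17, adjusted p = 4.72e-05 in limma). Over Expression lay above Wild type on all 3 arrays, by 0.51 in log2 (SE 0.17), which missed the threshold (adjusted p = 0.259 in limma, and 0.0381 with the replicate number as a block). The dimmer KAT8 probe set fell 3.0-fold after knockdown (-1.58, SE 0.26, adjusted p = 0.00296 in limma). It overlapped between Over Expression, at 657, 428 and 381, and Wild type, at 428, 499 and 401 (0.11, SE 0.26, adjusted p = 0.91 in limma). The arrays correlated between 0.973 and 0.985 within groups over the probe sets tested. Of 7 markers known in HEK293 cells 6 passed the filter, all but LHX1, and none was at 0. The 7 summed to 101325.0 in Knock Down, 97164.7 in Over Expression and 101256.7 in Wild type, sums made up mostly of VIM. PAX2 averaged 195.2 in Knock Down, 618.2 in Over Expression and 414.6 in Wild type, and KRT8 642.4, 1460.4 and 954.7 in the same order. Of 10 markers of leukocytes, hepatocytes, fibroblasts and endothelium 2 passed it, COL3A1 and PECAM1, and the 10 summed to 811.2, 1282.9 and 1292.2 in the same order of groups, with none at 0. The 3 replicate 1 arrays, 1 of each group, stood apart: the poly-A control transcripts were 2.23-fold brighter on the 6 arrays of replicates 2 and 3. The ratio of 3′ to 5′ probes of ACTB, a sign of RNA quality, was 1.207 to 1.306 in Knock Down, 1.175 to 1.375 in Over Expression and 1.392 to 1.425 in Wild type. That of GAPDH ran from 0.981 to 1.111 over all arrays. The part of these ACTB ratios in the results below was not tested.

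After knockdown, the 59 listed genes of G2/M and mitosis lay above Wild type more often than below it. Among 96 further G2/M genes, given below, 13 rose (13.5%) and 12 fell (12.5%), with a median log2 fold change of 0.05. Of the 59, 19 rose (32.2%) and 1, CKAP2, fell, against 6.82% of all 27307 probe sets tested that rose and 8.89% that fell (15.7% called in all). The genes are bright, and among the 12963 probe sets at least as bright as the dimmest of them 8.45% rose and 11.6% fell. The changes were small: the median log2 fold change of the 59 was 0.23, against 0.01 over all probe sets tested, and the 19 that rose did so between 1.21-fold (UBE2S) and 1.6-fold (CDC20). Knock Down lay wholly above Wild type for 32 genes (54.2%, against 16.9% of all probe sets) and wholly below it for 1, CKAP2 (1.69%, against 18.3%). At an unadjusted p under 0.05 there were 32 genes (54.2%, against 30.7%). The log2 fold change was above 0 in 47 (79.7%, against 51.0%). All fold changes refer to log2(signal + 1), and the adjusted p is that of limma after Benjamini-Hochberg adjustment over the 27307 probe sets, with a threshold of 0.05. In RNA from whole cultures, more cells in G2 and mitosis and more transcript per cell cannot be told apart.

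**Figure D2:**
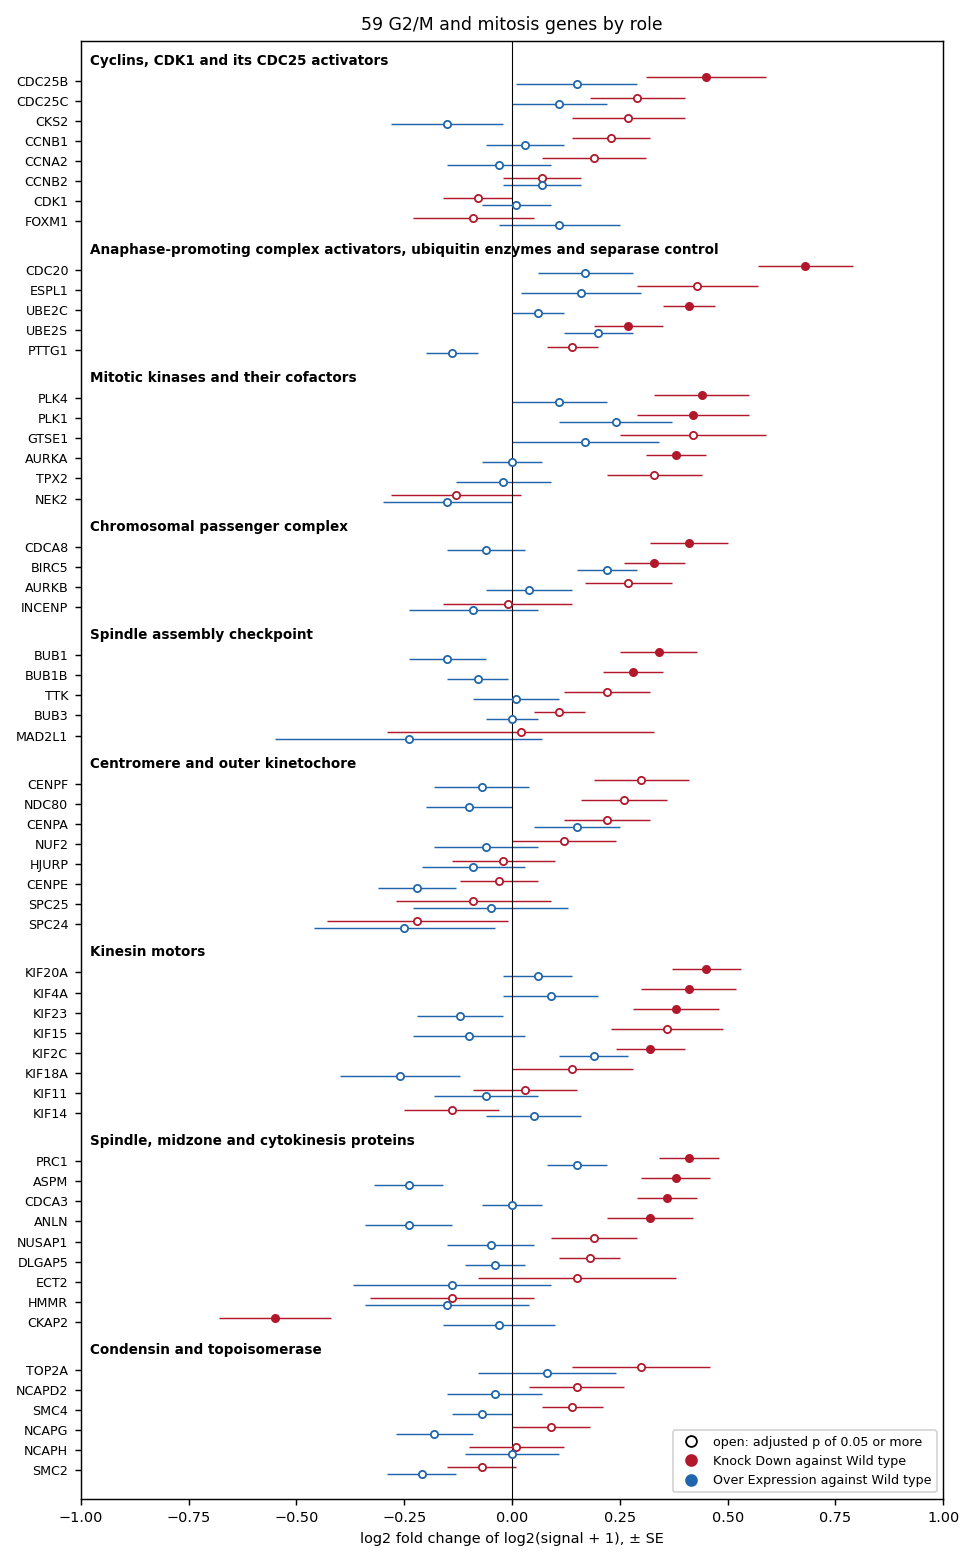
Log2 fold change with its standard error for each of the 59 genes, ordered by role, for Knock Down against Wild type (red, upper of each pair) and Over Expression against Wild type (blue). Filled points passed the threshold: 19 to the right of 0 and CKAP2 to the left after knockdown, and none after overexpression.

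The count depended on single arrays and on the design. When 1 Knock Down array was left out it was 13 (without replicate 1), 12 (without replicate 2) or 11 (without replicate 3), and when 1 Wild type array was left out it was 21, 7 or 11, in the same order of replicates. The share of all probe sets called was not counted with an array left out. A general loss of calls therefore cannot be told from one particular to these genes. The 7 genes called in all 6 of these fits were CDC20, UBE2C, AURKA, BIRC5, KIF20A, PRC1 and CDCA3. With the replicate number as a block 34 genes passed (57.6%, against 28.0% of all probe sets in that fit), and the 20 were among them. Of the 34, 33 were higher (55.9%, against 13.0%) and 1 lower (1.69%, against 15.0%). The 14 added were CCNB1, CKS2, CDC25C, ESPL1, TPX2, GTSE1, AURKB, TTK, CENPF, NDC80, KIF15, NUSAP1, DLGAP5 and TOP2A, with limma adjusted p with the block between 0.000767 (ESPL1) and 0.0366 (DLGAP5). From replicates 2 and 3 alone, an alternative chosen after seeing the data, 26 genes passed (44.1%, against 19.1% of all probe sets) and 24 were higher (40.7%, against 8.64%). Of the 26, 25 had the same sign in replicate 1 (96.2%), near the 94.8% of all probe sets so called, so this share is not particular to these genes.

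The shift was present at every replicate number. The median difference over the 59 genes between the Knock Down and Wild type arrays of the same number was 0.26, 0.24 and 0.19 for numbers 1, 2 and 3. Of the 59, 42 were higher in Knock Down at all 3 numbers (71.2%, against 29.0% of all probe sets tested) and 2 were lower at all 3 (3.39%, against 29.1%). Set against the Wild type mean of each gene, the median gene stood at 0.19, 0.23 and 0.24 on the Knock Down arrays, at -0.03, 0.00 and -0.02 on the Over Expression arrays and at 0.01 on each Wild type array. The spread within groups was alike, with a median SD over the genes of 0.105 in Knock Down, 0.119 in Over Expression and 0.12 in Wild type on the log2 scale.

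**Figure D3:**
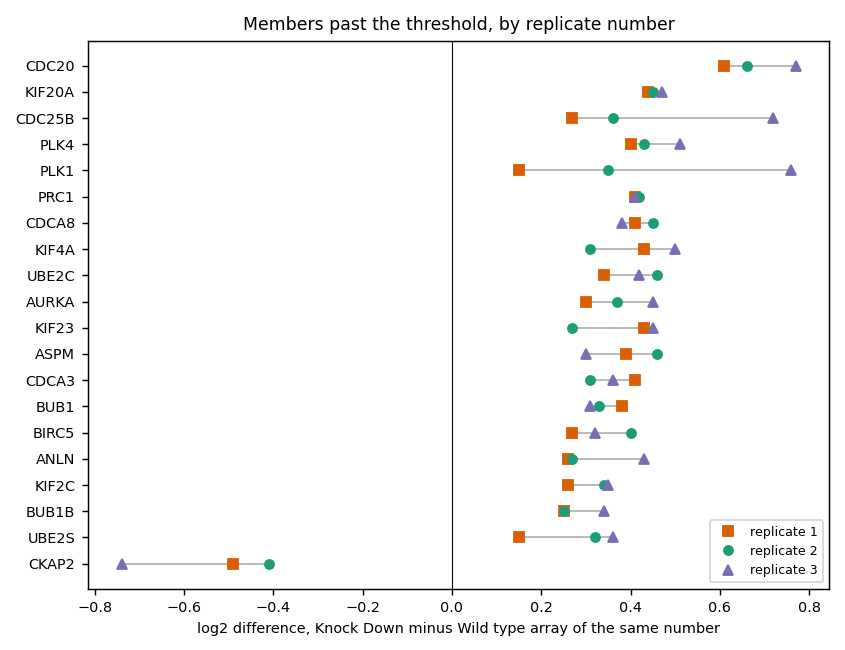
Log2 difference between the Knock Down and the Wild type array of the same replicate number for the 20 genes past the threshold, with squares, circles and triangles for numbers 1, 2 and 3. All 3 points lie on the same side of 0 for each of the 20 genes, and those of CKAP2 lie below it.

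**Figure D4:**
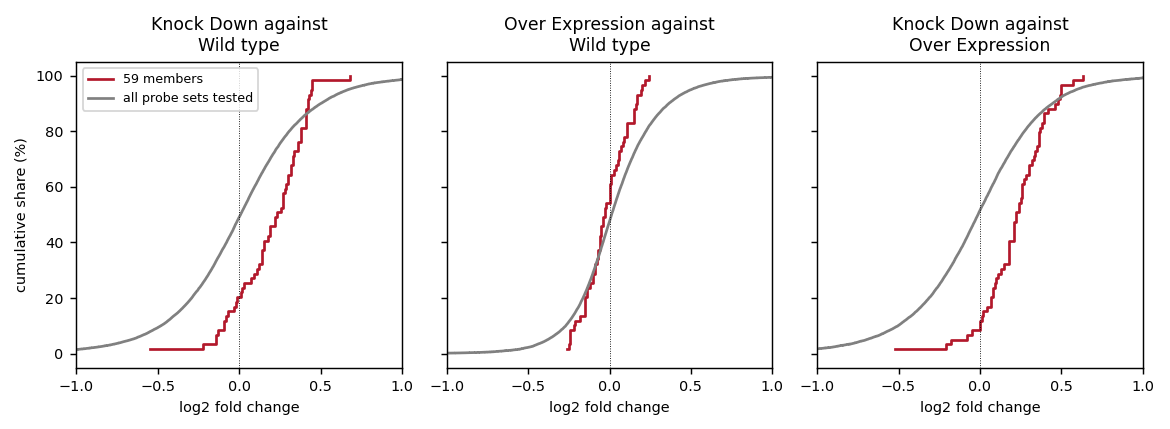
Cumulative share of the 59 genes (red) and of all 27307 probe sets tested (grey) against log2 fold change, for Knock Down against Wild type, Over Expression against Wild type and Knock Down against Over Expression. The axis ends at -1 and 1, beyond which only probe sets outside the list lie. The red line is right of the grey one over most of its course in both comparisons with Knock Down, where the medians are 0.23 and 0.22, and near it in the comparison of Over Expression, where the median is -0.03.

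The counts by role that follow stand beside the 6.82% of all probe sets, and 8.45% of the bright ones, that rose. Roles hold 4 to 9 genes each, and differences between roles were not tested. Of the 5 genes that open or guard the way to anaphase, 3 rose after knockdown, with a median log2 fold change of 0.41. CDC20, which activates the anaphase-promoting complex, had signals of 21468, 19053 and 19185 in Knock Down, 16010, 12543 and 13677 in Over Expression and 14110, 12034 and 11278 in Wild type. The lowest Knock Down array lay above the highest of the other groups, and CDC20 rose by 0.68 (SE 0.11, adjusted p = 0.00286 in limma), the largest rise among the 59. UBE2C, the ubiquitin-conjugating enzyme that starts chains for that complex, had 28922, 30169 and 30477 in Knock Down, 23813, 22910 and 23876 in Over Expression and 22907, 21972 and 22746 in Wild type. It rose by 0.41 (SE 0.06, adjusted p = 0.00197 in limma), and again no Knock Down array overlapped the others. UBE2S, which lengthens the chains, rose by 0.27 (SE 0.08, adjusted p = 0.0418 in limma), a call that, with single arrays left out, was kept only without Wild type replicate 1 (highest adjusted p 0.135, reached without Wild type replicate 3). ESPL1, the separase that cuts cohesin, had a log2 fold change of 0.43 (SE 0.14) that missed the threshold (adjusted p = 0.0673 in limma, and 0.000767 with the block). PTTG1, securin, had 0.14 (SE 0.06, adjusted p = 0.152 in limma). Its probe set, like those used for FOXM1, CENPA and BUB3, is of a kind that the array's maker marks as able to bind related transcripts.

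Among the mitotic kinases and their cofactors 3 of 6 rose, with a median of 0.40. AURKA, the kinase of centrosome maturation and spindle assembly, had 21956, 21172 and 21847 in Knock Down, 16376, 17542 and 16009 in Over Expression and 17818, 16340 and 15942 in Wild type. It rose by 0.38 (SE 0.07, adjusted p = 0.00616 in limma), with the Knock Down arrays above all others. Its activator TPX2 had a log2 fold change of 0.33 (SE 0.11, adjusted p = 0.0592 in limma, and 0.00284 with the block). PLK1, the kinase of mitotic entry and cytokinesis, had 6557, 5955 and 7601 in Knock Down, 6561, 5472 and 5679 in Over Expression and 5904, 4669 and 4497 in Wild type. The lowest Knock Down array stood just above the highest Wild type array, and PLK1 lay at the threshold, higher by 0.42 (SE 0.13, adjusted p = 0.04998 in limma). Its call was kept only without Wild type replicate 1, and the adjusted p reached 0.176 without Knock Down replicate 3. PLK4, which starts centriole duplication, had 6869, 6656 and 6334 in Knock Down, 4596, 5771 and 5465 in Over Expression and 5223, 4955 and 4446 in Wild type. It rose by 0.44 (SE 0.11, adjusted p = 0.0175 in limma). The PLK4 call ended without Knock Down replicates 1 or 2 or Wild type replicates 2 or 3 (highest adjusted p 0.0648), and its next brightest probe set read -0.17 (SE 0.33, adjusted p = 0.779 in limma). GTSE1, a microtubule-associated protein of G2, had 0.42 (SE 0.17, adjusted p = 0.12 in limma, and 0.00344 with the block) and the centrosomal kinase NEK2 -0.13 (SE 0.15, adjusted p = 0.613 in limma).

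The chromosomal passenger complex, which corrects wrong kinetochore attachments and later directs cytokinesis, had 2 of 4 genes higher after knockdown. BIRC5, survivin, had 22761, 24103 and 24401 in Knock Down, 21934, 23281 and 21126 in Over Expression and 18914, 18260 and 19606 in Wild type. It rose by 0.33 (SE 0.07, adjusted p = 0.00963 in limma), and here the Over Expression arrays also lay above Wild type. CDCA8, borealin, had 8706, 7560 and 7810 in Knock Down, 5870, 5434 and 5957 in Over Expression and 6543, 5540 and 5986 in Wild type. It rose by 0.41 (SE 0.09, adjusted p = 0.0143 in limma), a call lost without Wild type replicate 2 (adjusted p = 0.0664). AURKB, the kinase of the complex, had 13675, 13084 and 12386 in Knock Down, 12026, 10526 and 10704 in Over Expression and 11079, 12058 and 9367 in Wild type. The Knock Down arrays lay above all Wild type arrays, with a log2 fold change of 0.27 (SE 0.10, adjusted p = 0.0894 in limma, and 0.0168 with the block). A dimmer AURKB probe set read 1.32 (SE 0.20, adjusted p = 0.00184 in limma), so the probe sets of AURKB differ in size and in call. The scaffold INCENP had -0.01 (SE 0.15).

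Of 5 spindle checkpoint genes, which delay anaphase until attachment is complete, 2 rose. BUB1, the kinase that recruits the checkpoint to kinetochores, had 13007, 13863 and 13791 in Knock Down, 8867, 10469 and 9662 in Over Expression and 9970, 11052 and 11148 in Wild type. It rose by 0.34 (SE 0.09, adjusted p = 0.0219 in limma). BUB1B, BubR1, part of the inhibitor of CDC20, had 15101, 15224 and 15459 in Knock Down, 12152, 11129 and 12432 in Over Expression and 12684, 12820 and 12176 in Wild type, and rose by 0.28 (SE 0.07, adjusted p = 0.0228 in limma). For both genes the Knock Down arrays lay above all 6 others. Both calls ended without Wild type replicate 2, Knock Down replicate 2 or Knock Down replicate 3, that of BUB1 also without Wild type replicate 1 (highest adjusted p 0.0786) and that of BUB1B also without Wild type replicate 3 (highest adjusted p 0.0737). TTK, the MPS1 kinase, had 0.22 (SE 0.10, adjusted p = 0.141 in limma, and 0.0247 with the block). BUB3 had 0.11 (SE 0.06) and MAD2L1, the MAD2 protein, 0.02 (SE 0.31), and neither passed in either fit. The large SE of MAD2L1 goes with low replicate 1 arrays in every group, at 20822 in Knock Down, 16473 in Over Expression and 19292 in Wild type, where no other array was below 26071. Of the other MAD2L1 probe sets, the next brightest read 0.04 (SE 0.07, adjusted p = 0.756 in limma) and the dimmest read 0.40 (SE 0.12, adjusted p = 0.0427 in limma).

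Of 8 kinesin motor genes 4 rose after knockdown, with a median of 0.34. KIF20A, a motor of the central spindle, had 8830, 8599 and 8163 in Knock Down, 6574, 6573 and 6326 in Over Expression and 6516, 6301 and 5883 in Wild type. It rose by 0.45 (SE 0.08, adjusted p = 0.00401 in limma) with no overlap. KIF23, a subunit of centralspindlin, had 5463, 4679 and 5666 in Knock Down, 3693, 3864 and 3565 in Over Expression and 4045, 3873 and 4154 in Wild type, and rose by 0.38 (SE 0.10, adjusted p = 0.0227 in limma). KIF4A, a chromosome-bound motor, rose by 0.41 (SE 0.11, adjusted p = 0.0242 in limma), and KIF2C, a microtubule depolymerase, by 0.32 (SE 0.08, adjusted p = 0.0227 in limma). The calls of KIF23, KIF4A and KIF2C ended without Knock Down replicate 1 or Wild type replicate 2. They also ended without Knock Down replicate 3 (KIF23 and KIF4A), Wild type replicate 3 (KIF4A and KIF2C) or Knock Down replicate 2 (KIF2C), with adjusted p up to 0.0907, 0.0856 and 0.0811 for KIF23, KIF4A and KIF2C. KIF11 and KIF15, which push spindle poles apart, had 0.03 (SE 0.12) and 0.36 (SE 0.13), KIF18A had 0.14 (SE 0.14) and KIF14 had -0.14 (SE 0.11), all short of the threshold, KIF15 with adjusted p = 0.0154 in limma with the block.

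Proteins of the spindle, the midzone and cytokinesis held 4 of 9 that rose and the 1 that fell. PRC1, which bundles antiparallel microtubules at the midzone, had 34623, 31655 and 31536 in Knock Down, 28202, 26103 and 27094 in Over Expression and 26014, 23623 and 23764 in Wild type. It rose by 0.41 (SE 0.07, adjusted p = 0.00353 in limma), and the groups stood in the order Knock Down, Over Expression, Wild type with no overlap. CDCA3, a trigger of mitotic entry whose promoter is shown above, had 12740, 11794 and 12212 in Knock Down, 9364, 9572 and 9774 in Over Expression and 9604, 9514 and 9525 in Wild type. It rose by 0.36 (SE 0.07, adjusted p = 0.00692 in limma). ASPM, a spindle pole protein, had 20501, 18359 and 18409 in Knock Down, 12963, 11874 and 12187 in Over Expression and 15648, 13323 and 14961 in Wild type. It rose by 0.38 (SE 0.08, adjusted p = 0.012 in limma), lost without Wild type replicate 2 (adjusted p = 0.0571), and here the Over Expression arrays lay below all Wild type arrays. ANLN, anillin, a scaffold of the contractile ring, had 11657, 12852 and 14077 in Knock Down, 7813, 9614 and 8656 in Over Expression and 9731, 10642 and 10430 in Wild type, with the same order of groups as ASPM. It rose by 0.32 (SE 0.10, adjusted p = 0.0487 in limma), a call kept only without Knock Down replicate 1 (highest adjusted p 0.17, reached without Knock Down replicate 3). A second ANLN probe set read 0.37 after knockdown and 0.07 after overexpression (SE 0.09 for each).

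CKAP2, a microtubule-associated protein of the mitotic spindle, went the other way. Its signals were 11062, 12785 and 11004 in Knock Down, 13718, 20304 and 16594 in Over Expression and 15575, 17015 and 18373 in Wild type. All Knock Down arrays lay below all 6 others, and CKAP2 fell by 0.55 on the log2 scale (SE 0.13, adjusted p = 0.0172 in limma), or 1.46-fold. Leaving out Knock Down replicate 3 or either of Wild type replicates 2 and 3 ended the CKAP2 call (highest adjusted p 0.0653). Its other tested probe set, much dimmer, read 0.05 (SE 0.27, adjusted p = 0.925 in limma). Of the same role, the microtubule-binding proteins NUSAP1 and DLGAP5 had 0.19 (SE 0.10) and 0.18 (SE 0.07), past the threshold only with the block or the replicate 1 term (adjusted p = 0.0288 and 0.0366 in limma with the block). ECT2 had 0.15 (SE 0.23) and HMMR -0.14 (SE 0.19), which missed the threshold with and without the block.

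**Figure D5:**
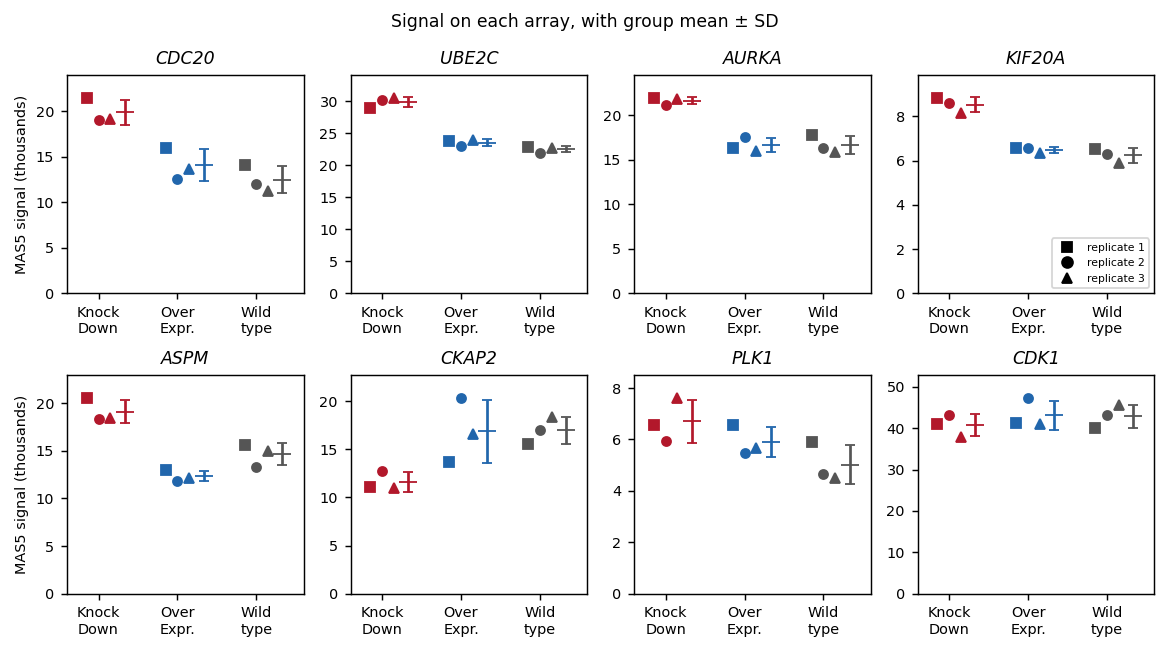
Signal on each array, for 8 of the genes in Knock Down (red), Over Expression (blue) and Wild type (grey), with squares, circles and triangles for replicates 1, 2 and 3 and bars for the mean ± SD. In CDC20, UBE2C, AURKA, KIF20A and ASPM the Knock Down arrays lie above all others, in CKAP2 below all others, and in PLK1 and CDK1 Knock Down overlaps Over Expression.

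The cyclins, CDK1 and its activators held 1 of 8 that rose (12.5%, against 8.45% of the bright probe sets), CDC25B. This phosphatase, which removes inhibitory phosphates from CDK1, rose by 0.45 (SE 0.14, adjusted p = 0.0465 in limma), a call kept only without Wild type replicate 1 (highest adjusted p 0.151, reached without Knock Down replicate 3). CCNB1, cyclin B1, had 29033, 33104 and 33405 in Knock Down, 26922, 28712 and 27117 in Over Expression and 24110, 27717 and 29636 in Wild type. Knock Down and Wild type overlapped, with a log2 fold change of 0.23 (SE 0.09, adjusted p = 0.0969 in limma, and 0.0157 with the block). CDK1 had 41121, 43118 and 37820 in Knock Down, 41268, 47216 and 40895 in Over Expression and 40024, 43090 and 45582 in Wild type, with no group apart (-0.08, SE 0.08, adjusted p = 0.567 in limma). FOXM1, the transcription factor that drives many of these genes, had 6395, 5720 and 6428 in Knock Down, 8027, 5966 and 7530 in Over Expression and 7872, 6080 and 5969 in Wild type. It too overlapped between groups (-0.09, SE 0.14, adjusted p = 0.685 in limma), in a probe set of the kind described for PTTG1. CDC25C had 0.29 (SE 0.11, adjusted p = 0.096 in limma, and 0.02 with the block) and CKS2, a CDK-binding subunit, 0.27 (SE 0.13, adjusted p = 0.197 in limma, and 0.0105 with the block). CCNA2, cyclin A2, had 0.19 (SE 0.12) and CCNB2, cyclin B2, 0.07 (SE 0.09), neither past the threshold with or without the block.

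None of the 8 genes of the centromere and outer kinetochore passed the limma test after knockdown, which 15.7% of all probe sets passed. CENPF, a protein of the outer kinetochore, had 16002, 13541 and 13486 in Knock Down, 12499, 10387 and 10587 in Over Expression and 13300, 11389 and 10397 in Wild type. Its log2 fold change was 0.30 (SE 0.11, adjusted p = 0.1 in limma, and 0.00315 with the block). CENPF was highest in replicate 1 of every group. NDC80 of the microtubule-binding NDC80 complex had 0.26 (SE 0.10, and adjusted p = 0.0238 in limma with the block), while its partners NUF2, SPC25 and SPC24 had 0.12 (SE 0.12), -0.09 (SE 0.18) and -0.22 (SE 0.21). CENPA, the centromeric histone, had 0.22 (SE 0.10), its chaperone HJURP -0.02 (SE 0.12) and the motor CENPE -0.03 (SE 0.09). Of the 6 condensin and topoisomerase genes none passed either. TOP2A, topoisomerase II alpha, had 36535, 24321 and 24058 in Knock Down, 29231, 22362 and 20583 in Over Expression and 22763, 22022 and 22647 in Wild type. Replicate 1 of Knock Down and of Over Expression stood far above the rest, and the log2 fold change was 0.30 (SE 0.16, adjusted p = 0.228 in limma, and 0.0343 with the block). The condensin genes NCAPD2, SMC4, NCAPG, NCAPH and SMC2 lay between -0.07 and 0.15, although a second SMC4 probe set read 0.31 (SE 0.08, adjusted p = 0.03 in limma).

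After overexpression none of the 59 genes passed the limma test, against 0.476% of all probe sets tested and 0.702% of those at least as bright as the dimmest of the 59. At an unadjusted p under 0.05 there were 8 (13.6%, against 12.3%), and 1, ASPM, passed with the replicate number as a block (1.69%, against 3.74%) or with a term for replicate 1. The log2 fold changes ran from -0.26 to 0.24 with a median of -0.03, against 0.01 over all probe sets. Over Expression lay wholly above Wild type for UBE2C, BIRC5, KIF2C and PRC1 (6.78%, against 9.92%) and wholly below it for PTTG1, CENPE, KIF23, ASPM, ANLN and SMC2 (10.2%, against 7.67%). BIRC5 had a log2 fold change of 0.22 (SE 0.07, adjusted p = 0.224 in limma). ASPM had -0.24 (SE 0.08, adjusted p = 0.275 in limma, and 0.041 with the block), and ANLN also -0.24 (SE 0.10, adjusted p = 0.347 in limma). The second ANLN probe set read 0.07 (SE 0.09, adjusted p = 0.81 in limma). PLK1 had 0.24 (SE 0.13), CDC20 0.17 (SE 0.11) and CDK1 0.01 (SE 0.08).

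Knock Down against Over Expression sets both transfected groups side by side, and shares its Knock Down arrays with the comparison above. Of the 59 genes 15 were higher in Knock Down (25.4%) and CKAP2 was lower, against 5.75% of all probe sets higher and 8.76% lower (14.5% called in all). Among the bright probe sets 8.39% were higher and 10.6% lower. The median was 0.22, against -0.01 over all probe sets, and Knock Down lay wholly above Over Expression for 29 genes (49.2%, against 14.9%). The log2 fold change was above 0 in 53 (89.8%, against 48.4%). Of the genes that rose against Wild type, CDC25B, UBE2S, PLK1, PLK4, BIRC5, KIF2C and KIF4A missed the threshold here without the block. Their log2 fold changes were 0.30, 0.08, 0.18, 0.33, 0.10, 0.13 and 0.32, in that order. ASPM showed the largest difference at 0.63 (SE 0.08, adjusted p = 0.00106 in limma), followed by ANLN at 0.57 (SE 0.10, adjusted p = 0.0043 in limma), KIF23 and CDC20 at 0.50 (SE 0.10 and 0.11, adjusted p = 0.00703 in limma and 0.012) and BUB1 at 0.49 (SE 0.09, adjusted p = 0.00414 in limma). The second ANLN probe set read 0.30 (SE 0.09, adjusted p = 0.0516 in limma), short of the threshold. CDCA8 had 0.48, KIF20A 0.39, AURKA 0.38, BUB1B and CDCA3 0.36 and UBE2C 0.34, all past the threshold. PTTG1, at 37509, 36048 and 35357 in Knock Down, 31464, 28910 and 29070 in Over Expression and 32743, 32064 and 33880 in Wild type, was higher by 0.28 (SE 0.06, adjusted p = 0.0128 in limma). Wild type lay between the treated groups for PTTG1. NDC80 (0.37, SE 0.10), KIF15 (0.46, SE 0.13) and PRC1 (0.26, SE 0.07) were called as well, and CKAP2 was lower by 0.52 (-0.52, SE 0.13, adjusted p = 0.0216 in limma), where its dimmer probe set read 0.29 (SE 0.27).

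Of these 16 calls, 10 stood in all 6 fits that left out 1 array: UBE2C, AURKA, CDCA8, BUB1, BUB1B, KIF20A, KIF23, ASPM, ANLN and CDCA3. The share of all probe sets called was not counted in those fits. Without Over Expression replicate 3 the count was 10, and the calls of CDC20 (adjusted p = 0.0506 in limma) and PTTG1 (0.0582) ended. The CKAP2 call also ended without Over Expression replicate 2 or Knock Down replicates 1 or 3 (highest adjusted p 0.0796), and that of NDC80 without Over Expression replicates 1 or 3 or Knock Down replicates 2 or 3 (up to 0.13). KIF15 and PRC1 kept theirs only without Over Expression replicate 1 (up to 0.12 and 0.0877). With the replicate block 33 genes passed (55.9%, against 26.9% of all probe sets in that fit), 32 of them higher in Knock Down (54.2%, against 12.1%), and all 16 were among them. Members added by the block included CKS2 (0.42, adjusted p = 0.000849 in limma), CENPF (0.36, 0.000924), TPX2 (0.35, 0.00202), KIF4A (0.32, 0.00507) and NCAPG (0.27, 0.00697). The others were CCNB1, CCNA2, ESPL1, PLK4, GTSE1, AURKB, TTK, KIF18A, NUSAP1, DLGAP5, ECT2 and SMC4, with adjusted p in limma between 0.0107 (NUSAP1) and 0.0468 (GTSE1).

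Other genes of the pathway were read from lists also drawn up with earlier results known. Of 96 further G2/M genes tested, 13 rose (13.5%) and 12 fell (12.5%) after knockdown, against the 6.82% and 8.89% of all probe sets, with a median of 0.05. Among the bright probe sets 8.45% rose and 11.6% fell, so the share of this list that fell is near theirs. SAPCD2 rose most, by 1.26 (SE 0.11, adjusted p = 0.000148 in limma), CDCA2, a chromatin-targeting subunit of protein phosphatase 1, by 0.59 (SE 0.10) and the spindle protein gene FAM83D by 0.42 (SE 0.07). CDC26, a subunit of the anaphase-promoting complex, fell by 0.63 (SE 0.07), TRIP13, an ATPase that takes checkpoint complexes apart, by 0.68 (SE 0.11) and MAD2L2, also a subunit of a translesion polymerase, by 0.42 (SE 0.08). These 6 calls stood in all 6 fits that left out 1 array. In this list none passed after overexpression with limma. Against Over Expression, 12 were higher and 12 lower in Knock Down (12.5% each). All probe sets gave 5.75% and 8.76%, and the bright ones 8.39% and 10.6%. Called genes included MKI67, the Ki-67 proliferation antigen (0.67, SE 0.11), and ENSA, an inhibitor of protein phosphatase 2A (-0.44, SE 0.07).

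Of 20 regulators of the G2/M programme tested, 4 rose and 1 fell after knockdown, with a median of -0.01. The 25% called stands against 15.7% of all probe sets and 20.0% of the bright ones. The repressor E2F7 rose by 0.47 (SE 0.08, adjusted p = 0.00425 in limma), MYBL1 by 0.52 (SE 0.10) and the CDK inhibitor CDKN1B by 0.45 (SE 0.11), while LIN52, a MuvB subunit, fell by 0.60 (SE 0.12, adjusted p = 0.00769 in limma). CDKN1A, the p21 inhibitor, had 6514, 5929 and 5939 in Knock Down, 7446, 6598 and 7126 in Over Expression and 5111, 4562 and 4289 in Wild type. Both treated groups lay above Wild type, by 0.40 (SE 0.10, adjusted p = 0.0176 in limma) after knockdown and 0.60 (SE 0.10, adjusted p = 0.0202 in limma) after overexpression. The CDKN1A call after knockdown ended without Knock Down replicate 1 or either of Wild type replicates 2 and 3 (highest adjusted p 0.0652), and that after overexpression without Over Expression replicates 1 or 3 or Wild type replicates 2 or 3 (highest adjusted p 0.132). The CDKN1A call after overexpression also ended with no trend in the limma fit (adjusted p = 0.0772) and with only the 2 groups in it (0.088). The CDKN1B call after knockdown ended without Knock Down replicates 2 or 3 or Wild type replicates 1 or 2 (highest adjusted p 0.0787). MYBL2, which encodes B-MYB, had 9373, 8138 and 8718 in Knock Down, 13422, 10506 and 12256 in Over Expression and 11658, 11165 and 9951 in Wild type. Every Knock Down array was below every other array, at -0.32 against Wild type (SE 0.11, adjusted p = 0.0613 in limma, and 0.0075 with the block) and -0.46 against Over Expression (SE 0.11, adjusted p = 0.0153 in limma, and at most 0.065 without Knock Down replicates 2 or 3 or Over Expression replicate 3, which each ended the call). LIN9, another MuvB subunit, had -0.40 against Wild type (SE 0.30, adjusted p = 0.406 in limma).

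Genes of G1/S and replication, read beside the mitotic genes, had a median of -0.02 after knockdown, with 5 of 47 higher and 2 lower. Without the block the 14.9% called is near the 15.7% of all probe sets, so that count is no result about this list. With the replicate block 19 of the 47 passed, 10 of them higher. In that blocked fit 28.0% of all probe sets passed and 13.0% were higher. CCND1, cyclin D1, rose by 0.81 (SE 0.16, adjusted p = 0.00742 in limma) and RRM2, a ribonucleotide reductase subunit, by 0.31 (SE 0.06). GINS1, a subunit of the replicative helicase, fell by 0.51 (SE 0.08, adjusted p = 0.002 in limma). These calls stood in all 6 fits that left out 1 array, while that of MCM6, also of the helicase (-0.33, SE 0.09, adjusted p = 0.0263 in limma), ended without Knock Down replicate 3 or Wild type replicates 2 or 3 (highest adjusted p 0.0965).

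The replicate 1 arrays differed from the others in both directions among the 59 genes. Replicate 1 was the lowest array in all 3 groups for 15 genes (25.4%, against 15.4% of all probe sets tested), among them CCNB1, CKS2, MAD2L1, HMMR and NUSAP1. It was the highest in all 3 for another 15 (25.4%, against 16.3%), among them CDC20, CENPF, ESPL1 and GTSE1. Each group holds 1 such array, and the median difference between Knock Down and Wild type was 0.26 within replicate 1. Of the 10 genes past the threshold after knockdown that had further tested probe sets, 15 in number, 13 of these probe sets read in the same direction as the first and 7 of the 13 passed the limma test. The 2 that read the other way were those of PLK4 and CKAP2 given above.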

How the data were processed

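Total RNA of 9 HEK293 samples was labelled with biotin and read on 9 expression arrays of 54675 probe sets, 1 array per sample. As deposited, each value is an intensity on a linear scale that the authors computed with MAS5 (version not given), as the submitters' processing notes say. All 9 columns shared 1 trimmed mean (2%), 1500.2, so they were scaled alike and differences in total RNA per cell do not show. Samples were grouped by their titles.

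Signals were transformed to log2(signal + 1). The 62 control probe sets were dropped, and the 27307 others whose mean reached the median of all others (7.564, a signal of about 188) entered 1 limma fit of the 9 arrays (limma 3.58.1 under R 4.3.3). It used lmFit and eBayes with trend and left 6 residual degrees of freedom. Tests were two-sided and adjusted by Benjamini-Hochberg over the 27307. The fit was tested on simulated data. The number of arrays limits the precision. Gene names came from the array annotation table: 41097 probe sets had 1 symbol, 1801 several and 11777 none, and 41043 matched RefSeq genes by Entrez ID. Figures were drawn with matplotlib 3.10.9.

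The members and all lists were chosen with earlier results of these data known. Every member could be named; signals per array were given for those of smallest p and for CCNB1, CDK1, PLK1, AURKB, FOXM1, TOP2A, CENPF and BUB1, and of the other lists up to 6 genes of smallest p per comparison, with CDKN1A, MYBL2 and LIN9 throughout. Some genes that met this rule were left out of the prose.

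Whether replicate numbers pair the arrays was checked from the labels' numbers. Same-numbered arrays had deviations from their group means that correlated at 0.362, 0.144 and 0.137 for Knock Down with Wild type, 0.352, 0.237 and 0.106 for Knock Down with Over Expression, and 0.447, 0.16 and 0.083 for Over Expression with Wild type. With a bound of 0.1 both comparisons with Knock Down met the rule for pairing, and the blocked value is given where it changes a member's call. Arrays numbered 2 and 3 also correlated across groups, from 0.029 (Knock Down 3 with Wild type 2) to 0.284 (Over Expression 2 with Wild type 3). Knock Down 2 with Wild type 3 gave 0.18. Replicate 1 arrays correlated with other numbers between -0.377 and -0.128. These values set replicate 1 apart and do not show that each number is a pair. The alternatives were no filter, a filter at the 75th percentile, a pseudocount of 16, quantile normalization, no trend, the replicate block, a term for replicate 1, only the 2 groups compared, each array left out, and another probe set of the gene. Replicates 2 and 3 alone, and the background of bright probe sets, were added after seeing the data.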

Additional observations from a re-analysis of the deposited data

How the results depend on the processing

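After knockdown the count of 20 genes lay between 16 and 20 with no filter, the stricter filter, the larger pseudocount, quantile normalization and only the 2 groups. It was 12 with no trend, 34 with the replicate block, 34 with the term for replicate 1 and 7 to 21 with 1 array left out, and the median of 0.23 lay between 0.19 and 0.26 in those last fits. Without a trend the calls of CDC25B, UBE2S, PLK1, BUB1, BUB1B, KIF2C, KIF4A and ANLN ended. Those of CDC25B, UBE2S, PLK1 and ANLN also ended with no filter, those of UBE2S and ANLN with quantile normalization, and that of PLK1 with only the 2 groups. Over 914 values by gene and setting, 2 changed sign among called genes, with the other probe set of PLK4 (-0.17) and of CKAP2 (0.05). After overexpression the count of 0 became 1 with the replicate block and also 1 with that term, and the median of -0.03 was -0.01 with quantile normalization and -0.03 to 0.01 with 1 array left out. KAT8 after overexpression (0.51) passed with the block (adjusted p = 0.0381 in limma) and under the replicate 1 term (0.0478). Between Knock Down and Over Expression the count of 16 was 33 with the block, 33 with the term for replicate 1 and 10 to 18 with 1 array left out. The median of 0.22 was 0.19 with quantile normalization, 0.25 from replicates 2 and 3 alone and 0.21 to 0.24 with 1 array left out, and CKAP2 turned to 0.29 with its other probe set. Without a trend the calls of PTTG1, NDC80, KIF15, PRC1 and CKAP2 ended. The replicate block ended no call of a member. Among the other lists after knockdown, the block gave 41 calls in place of 25 for further G2/M genes and 19 in place of 7 for G1/S genes. Over all probe sets the block gave 28.0% called in place of 15.7%. No trend gave 13 and 3 calls in these lists. The shares of all probe sets called with no trend, or with 1 array left out, were not counted. CDKN1A after overexpression was lost with no trend and with only the 2 groups. The cause of these shifts was not tested. Signal is far above the filter for these genes, and 3 arrays a group limit the precision.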
